A study of Drosophila simulans x Drosophila sechellia and Drosophila simulans x Drosophila mauritiana and Drosophila mauritiana x Drosophila simulans with 63 samples.

Results

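This comparison of XX with XY embryos used the 6 hybrid embryos of the *mau* x *sim* cross at late stage 5, out of 63 embryos in the series. The mothers were *D. mauritiana* of a white-eyed line and the fathers were *D. simulans* w[501], since crosses are written with the mother first. XX embryos (replicates 1 to 3) carried a *D. mauritiana* X from the mother and a *D. simulans* X from the father, and XY embryos (replicates 4 to 6) carried the maternal *D. mauritiana* X with a *D. simulans* Y. All 6 had 1 set of autosomes from each species and cytoplasm from a *D. mauritiana* egg. Each library was poly(A) RNA from a single embryo, collected when cellularization was complete and before gastrulation, and its sex had been read by PCR for Y-linked genes. Embryos of the reciprocal cross *sim* x *mau* (4 XX and 2 XY), in which the X copies are exchanged between species, served as the comparison. The paper states that the numbers of each sex in that cross were determined from the transcriptomic data. Those labels therefore do not stand fully apart from the RNA measured.

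In *Drosophila*, males have a single X and the MSL complex, made of MSL proteins, helicase, acetyltransferase and roX RNAs, raises transcription along it. Whether the complex forms is set by *Sex-lethal* (*Sxl*), which counts X-linked signal proteins in the blastoderm, turns on in XX embryos and then blocks production of MSL2 protein. Late blastoderm embryos sit at the point where the zygotic genome has been activated, the MSL complex is only beginning to act, and much of the RNA laid down by the mother is still present.

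The values are signals: reads that overlap a variant between the species, summed per gene over both alleles and scaled per embryo by the upper quantile. Genes carry different numbers of variants, so levels were compared between embryos and not between genes. Of 10955 genes, 5887 had a mean total of 10 or more over the 6 embryos and were tested, 932 on the X and 4955 on autosomes. Differences are log2(total + 1) in XX less that in XY, with limma and Benjamini-Hochberg adjustment over the 5887 genes, and a gene was called at an adjusted p below 0.05. Each embryo had between 2853568 and 4303735 reads. The p-values measure the spread among single embryos.

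The alleles matched the sex labels in all 6 embryos. *D. simulans* alleles made up 23.8%, 24.1% and 23.0% of X-linked signal in the XX embryos, against 0.984%, 0.990% and 0.988% in the XY embryos, which have no *D. simulans* X. The XY values give the background of misassigned reads. Among genes that are mostly zygotic (more than 3 log2 units higher at stage 5 than at stage 2 in the parental species), *D. simulans* alleles held 46.8% ± 0.221 of X-linked signal in XX embryos (SD, n = 3), against 0.342% ± 0.0159 in XY embryos (SD, n = 3). On the autosomes the same class gave 50.9% in XX embryos and 51.0% in XY embryos. Over all autosomal genes tested, however, the *D. simulans* share was 23.9%, 24.6% and 23.0% in XX embryos. In XY embryos it was 26.3%, 25.3% and 25.5%, without overlap. Mapped to *D. mauritiana*, this share was 22.0% ± 0.691 in XX embryos and 24.1% ± 0.572 in XY embryos (SD, n = 3 each). The source of this autosomal difference and its part in the sex differences below were not tested. The X-linked share of all signal was 13.3%, 13.2% and 13.4% in XX embryos, and 11.4%, 11.2% and 11.2% in XY embryos. XX replicate 3 stood apart from the rest, with a mean Spearman's rho of 0.980 with the other embryos where each of the others had 0.987 or 0.988.

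*Sxl*, the switch gene of female fate, was 3.54-fold higher in XX embryos. Its total signal was 3829, 4038 and 4095 in XX embryos, against 1238, 1024 and 1118 in XY embryos. No XX value came near an XY value, and the log2 difference was 1.83 (SE 0.10, adjusted p 0.00253, limma). The gain exceeded the number of X copies. The maternal *D. mauritiana* allele alone, present in 1 copy in each sex, gave 1931, 2116 and 2174 in XX embryos against 1238, 1024 and 1116 in XY embryos, and the paternal *D. simulans* allele added 1898, 1922 and 1921 in XX embryos. Each single copy in XX embryos thus lay above the single copy of every XY embryo. The *D. mauritiana* allele test of *Sxl* gave a log2 difference of 0.88 (SE 0.11, adjusted p 0.0557), which misses the threshold, also mapped to *D. mauritiana* (adjusted p 0.0628).

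*msl-2*, the autosomal gene for the limiting protein of the MSL complex, moved the other way. Its total was 432, 441 and 421 in XX embryos, against 1509, 1390 and 1453 in XY embryos, a log2 difference of -1.75 (SE 0.08, adjusted p 0.00157) or 3.35-fold more in XY. Both alleles were lower in every XX embryo than in any XY embryo. The *D. mauritiana* allele of *msl-2* was at 211, 240 and 208 in XX embryos against 790, 728 and 741 in XY embryos, and the *D. simulans* allele at 221, 201 and 213 in XX embryos against 719, 662 and 711 in XY embryos.

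Both other MSL proteins also had more RNA in XY embryos. *msl-3*, which encodes the chromodomain subunit, was at 199, 255 and 291 in XX embryos and 417, 374 and 459 in XY embryos (log2 difference -0.76, SE 0.16, adjusted p 0.0492). *msl-1*, the scaffold subunit, was at 590, 600 and 605 in XX embryos and 816, 792 and 838 in XY embryos (log2 difference -0.45, SE 0.07, adjusted p 0.0235). The groups do not overlap for either gene, yet both sit close to the threshold: *msl-1* lost its call in 6 and *msl-3* in 7 of 15 alternative analyses, whereas *msl-2* kept its call in all 15.

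**Figure D1:**
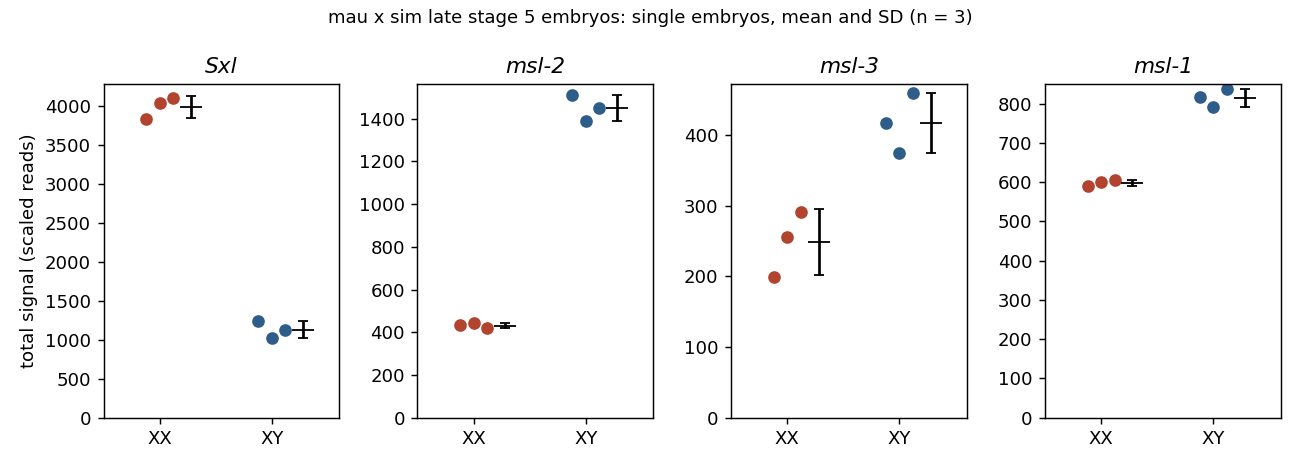
Total signal (scaled reads, linear axes from 0) of *Sxl*, *msl-2*, *msl-3* and *msl-1* in each XX and XY embryo of *mau* x *sim*, with black bars for mean and SD (n = 3). *Sxl* sits between 3829 and 4095 in XX embryos and between 1024 and 1238 in XY embryos, and the 3 *msl* genes are lower in every XX embryo than in any XY embryo.

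Of the 7 measured MSL genes, 3 were called higher in XY and none higher in XX, where 1.24% of all genes tested were called higher in XY and 4.65% higher in XX. The list median was -0.14, against -0.03 over all genes. The 0 calls in XX stand beside 1 member at an unadjusted p below 0.05 and 0 calls by edgeR or DESeq2. *mle*, the RNA helicase, differed by 0.07, *Clamp*, the zinc finger protein that guides the complex to the X, by 0.12, and *JIL-1*, a histone H3 kinase, by -0.14 (none called). *mof*, the X-linked H4 acetyltransferase, was at 89.5, 88.2 and 84.6 in XX embryos and 63.7, 72.8 and 64.7 in XY embryos, without overlap (log2 difference 0.38, adjusted p 0.0631). *roX1* and *roX2* were not analysed here.

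The upstream X-linked signal elements were not called by limma in *mau* x *sim*. *sisA*, a bZIP activator of *Sxl*, was at 813, 1026 and 1149 in XX embryos and 648, 933 and 776 in XY embryos (log2 difference 0.34, adjusted p 0.362). *sc*, a bHLH signal element, was at 38.6, 40.3 and 34.9 in XX embryos and 23.7, 29.96 and 17.5 in XY embryos (log2 difference 0.68, adjusted p 0.108). *run*, a Runt transcription factor, was at 1141, 1038 and 1569 in XX embryos and 871, 755 and 819 in XY embryos (log2 difference 0.59, adjusted p 0.109). For *sc* and *run* every XX embryo was above every XY embryo, and edgeR (adjusted p 0.0172) and DESeq2 (0.000367) called *run*. Mapped to *D. mauritiana*, *sc* differed by 0.25. In *sim* x *mau*, limma called *sc* (log2 difference 0.95, adjusted p 0.0383). It did not call *sisA* (0.71, adjusted p 0.0817) or *run* (0.32, adjusted p 0.229) there.

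Among 15 measured genes for X counting and sex determination, 1 (*Sxl*) was called higher in XX and none higher in XY, with a list median of 0.15. Over all genes the shares called were 4.65% and 1.24%, and over X-linked genes 28.8% and 0.966%. The 0 stands beside 1 member at an unadjusted p below 0.05 and 0 calls by edgeR or DESeq2. That member was *her*, at 213, 161 and 207 in XX embryos and 230, 265 and 236 in XY embryos, without overlap. Its log2 difference was -0.34 (adjusted p 0.226, limma). The antagonists of *Sxl* activation *dpn*, *emc* and *gro* differed by 0.26, 0.09 and 0.13. The splicing partners of *Sxl* (*snf*, *fl(2)d*, *vir*) differed by between -0.06 and 0.18, and the downstream genes of the pathway (*tra*, *tra2*, *dsx*, *ix*) by between -0.06 and 0.22. No gene of these 3 groups was called. *ssx*, the X-linked paralog of *Sxl*, lies outside the list and was singled out after its values were seen. It was at 2059, 2041 and 2291 in XX embryos and 2769, 2843 and 2945 in XY embryos, a log2 difference of -0.42 (SE 0.08, adjusted p 0.0416), opposite in sign to that of *Sxl*.

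Over the whole X, 268 of 932 genes were called higher in XX (28.8%) and 9 higher in XY (0.966%). On the autosomes 6 of 4955 were called higher in XX (0.121%) and 64 higher in XY (1.29%). The X-linked genes called higher in XX differed by a median of 0.78 log2 units, and 55 of them by more than 1 unit. With equal output per copy from both species and no maternal RNA left, 2 copies against 1 would give 1 unit. Neither condition was tested for these genes as a set. Without any overlap between the groups, 57.0% of X-linked genes were higher in XX and 3.33% higher in XY, where the autosomes gave 5.23% and 16.3%. Medians in windows of 4 Mb along the *D. simulans* X lay between 0.31 and 0.42.

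These counts rest on few embryos. Leaving out a single embryo gave between 16 and 189 X-linked genes called higher in XX, with 87 and 118 without XX replicates 1 and 2, and 153, 97 and 16 without XY replicates 4, 5 and 6. Without XY replicate 6 autosomal calls fell to 0 higher in XX and 2 higher in XY. Without XX replicate 3 the X-linked counts were 189 and 10, and the autosomal counts 7 and 43. Mapped to *D. mauritiana*, the X gave 159 higher in XX (17.9%) and 6 higher in XY (0.676%), and the autosomes 4 (0.0855%) and 32 (0.684%). With scaling from autosomal genes, autosomal calls were split into 10 higher in XX and 37 higher in XY. edgeR gave 21 (0.424%) and 94 (1.9%), and DESeq2 20 and 79.

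The size of the X difference against the autosomes was steadier than the counts. For each embryo, the median deviation of X-linked genes from the mean of the 6 embryos was taken less the same median over autosomal genes. It was 0.23, 0.21 and 0.22 in XX embryos, and -0.18, -0.22 and -0.22 in XY embryos, a difference of 0.43 log2 units. The groups are far apart relative to their spread (SD 0.013 in XX and 0.022 in XY, n = 3 each). The exact permutation test, two-sided, gave p = 0.1, the smallest that 3 embryos against 3 can give. This held for the per-embryo differences below as well.

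The median gene on the X differed by 0.36 and the median autosomal gene by -0.06. With scaling from autosomal genes alone the X-linked median was 0.42. Leaving out any embryo kept the X against autosome difference between 0.42 and 0.44, and mapping to *D. mauritiana* gave 0.39. Mapping matters because the totals of X-linked genes in XX embryos include a *D. simulans* allele that XY embryos lack, so that a preference for the reference allele cannot be told apart from a sex difference within a single mapping direction.

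**Figure D2:**
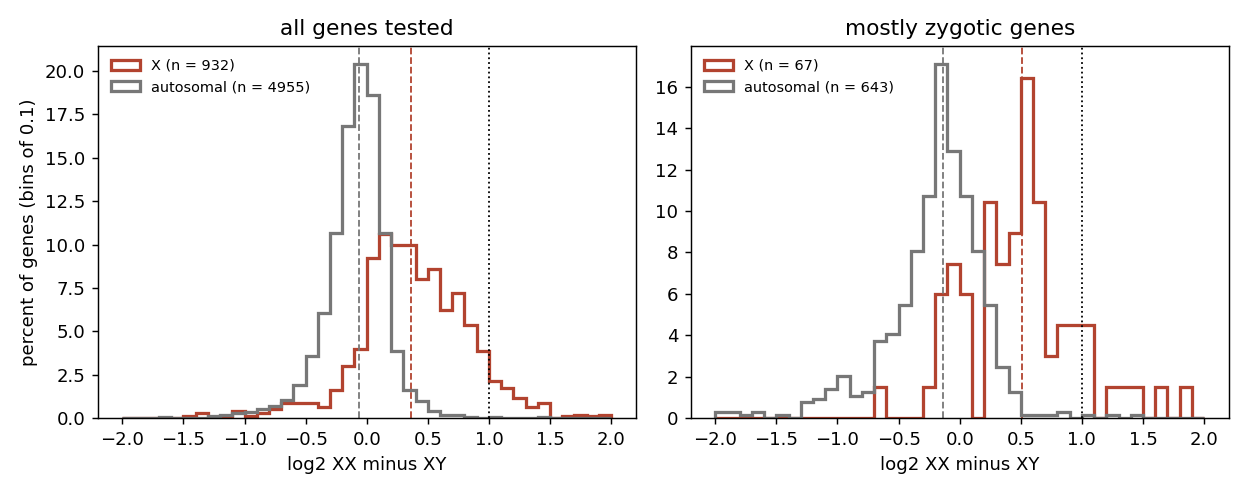
Percent of genes by log2 XX minus XY (bins of 0.1, values beyond 2 placed in the outer bins) for X-linked and autosomal genes, over all genes tested and over mostly zygotic genes. Dashed lines are medians and the dotted line marks 1, the value of 2 copies against 1 with equal output per copy and no maternal RNA. The X medians are 0.36 and 0.51 and the autosomal medians -0.06 and -0.14, and most X-linked genes lie between 0 and 1.

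Genes were also split by their change in level from stage 2 to stage 5, which does not measure how much of the stage 5 RNA is maternal. Mostly zygotic X-linked genes (67 genes) had a per-embryo difference from mostly zygotic autosomal genes (643 genes) of 0.64 (XX 0.33 ± 0.057, XY -0.31 ± 0.062, SD, n = 3 each), and 0.50 when mapped to *D. mauritiana*. X-linked genes with a stage 5 level between 0 and 3 log2 units above stage 2, called mixed here, differed by 0.33 (402 genes), and those whose level fell after stage 2 by 0.55 (463 genes). Mapped to *D. mauritiana*, falling genes differed by 0.50 as well, and over genes with similar totals in both mapping directions they differed by 0.59, against 0.52 for mostly zygotic genes, so that the order of these 2 classes was not the same in all settings. The parental embryos that define the classes may come from an earlier study. Of the mostly zygotic X-linked genes 23.9% were called higher in XX, of the mixed genes 26.1% and of the falling genes 31.7%, against 28.8% of all X-linked genes.

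**Figure D3:**
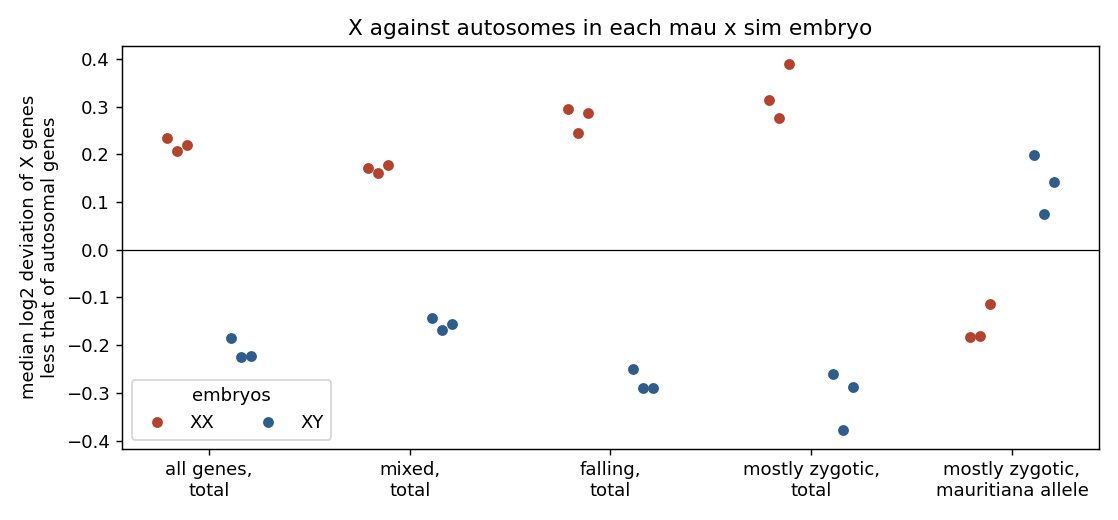
Median log2 deviation of X-linked genes less that of autosomal genes in each XX and XY embryo of *mau* x *sim*, for totals of all genes and of 3 classes, and for the *D. mauritiana* allele of mostly zygotic genes. XX embryos lie above XY embryos for every total and below them for the *D. mauritiana* allele.

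The share of a gene's signal that comes from the father's allele was used as an indirect measure of zygotic origin. The share also depends on differences in level between the alleles and on mapping, which was to *D. simulans* alone. It was taken from XX embryos of the reciprocal cross, which the comparison did not use, and the bins were set after the data had been seen. Where the paternal allele held under 5% of the signal, the median X-linked gene differed by 0.10 and the median autosomal gene by 0.06. The X-linked medians in the next bins were 0.17 at 5 to 15%, 0.34 at 15 to 30%, 0.58 at 30 to 45% and 0.48 over 45%. The autosomal medians ran the other way, at 0.03, -0.04, -0.12 and -0.12. No bin reached the 1 log2 unit of 2 copies against 1 with equal output per copy, also not when mapped to *D. mauritiana*, where the highest X-linked median was 0.47.

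**Figure D4:**
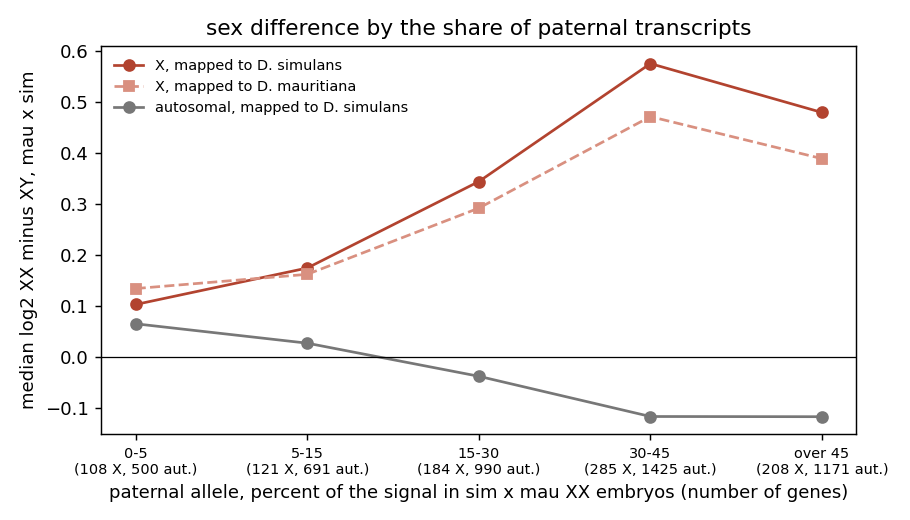
Median log2 XX minus XY in *mau* x *sim* against the paternal share of the signal in *sim* x *mau* XX embryos, for X-linked genes in both mapping directions and for autosomal genes, with the number of genes in each bin under the axis. The X-linked median is 0.10 in the lowest bin and 0.58 at 30 to 45%, while the autosomal median stays between -0.12 and 0.06.

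Because both sexes carry a single maternal *D. mauritiana* X, the *D. mauritiana* allele compares 1 copy with 1 copy. For mostly zygotic X-linked genes the median of that allele was 0.43 log2 units lower in XX embryos (median difference -0.43), against -0.14 for autosomal genes of the class. Per embryo the X less autosome value was -0.18, -0.18 and -0.11 in XX embryos and 0.20, 0.08 and 0.14 in XY embryos, a difference of -0.30. Of the 67 genes, 60 had a value below 0. With equal alleles, equal totals in both sexes would put this value at -1 and equal output per copy at 0, and the lower and upper quartiles of the 67 genes were -0.68 and -0.18.

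Gene by gene, the total and the allele run together by construction, as the total of an XX embryo is the sum of its alleles. Totals of the 67 genes spread widely, with 11 below 0, 22 between 0 and 0.5, 26 between 0.5 and 1 and 8 at 1 or more. Several patterning genes had totals near 0. The gap gene *gt* was at 807, 928 and 941 in XX embryos and 825, 923 and 916 in XY embryos, a log2 difference of 0.00 in total, while its *D. mauritiana* allele alone was at 431, 462 and 495 in XX embryos against 825, 922 and 915 in XY embryos (log2 difference -0.94, SE 0.10, adjusted p 0.0408, and again -0.94 but adjusted p 0.0547 mapped to *D. mauritiana*). The signal of the single copy of *gt* in XY embryos lay within the range of both copies together in XX embryos.

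*beta-Spec*, which encodes a spectrin of the membrane skeleton, had a total of 2584, 2759 and 2610 in XX embryos and 2622, 2639 and 2714 in XY embryos (log2 difference -0.00). Its *D. mauritiana* allele differed by -0.76 (adjusted p 0.0408, and -0.75 with adjusted p 0.0589 mapped to *D. mauritiana*). *sog*, an antagonist of Dpp signalling, differed by -0.02 in total and -0.97 for the *D. mauritiana* allele. Its total was 2485, 2197 and 1629 in XX embryos and 2196, 2063 and 2053 in XY embryos. *disco*, a zinc finger regulator, differed by -0.04 and -1.21. Its total was 276, 280 and 427 in XX embryos and 328, 345 and 319 in XY embryos. For both genes the total of XX replicate 3 lay outside the range of the other embryos. The allele test called neither gene (adjusted p 0.105 for *sog* and 0.110 for *disco*).

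Over all X-linked genes the *D. mauritiana* allele was called lower in XX for 12 of 932 (1.29%) and higher for 0, with 0.0807% of autosomal genes called lower in XX. The 12 adjusted p-values lay between 0.0408 and 0.0488, and mapped to *D. mauritiana* none of 888 X-linked genes was called for this allele in either direction. Among the 12 were 4 mostly zygotic genes, namely *gt*, *beta-Spec*, *peb* (a zinc finger regulator of epithelial shape) and *bou* (a Ly6-type protein of septate junctions). At an unadjusted p below 0.05, limma found 22 of 932 X-linked genes higher in XX and 233 lower. Of 4955 autosomal genes, 147 were higher and 409 lower at that p, so the lean towards lower values in XX was not confined to the X. *Sxl* was nearest to a call in the direction of XX, at the adjusted p of 0.0557 given above.

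At the other end, 16 mostly zygotic X-linked genes were called higher in XX. *ac*, a proneural bHLH gene, was at 100, 80.6 and 121 in XX embryos and 56.2, 47.1 and 41.8 in XY embryos (log2 difference 1.03, adjusted p 0.0271). *NetA*, an axon guidance ligand, was at 1141, 1076 and 918 in XX embryos and 533, 457 and 562 in XY embryos (log2 difference 1.01, adjusted p 0.0116). *tsg*, an extracellular partner of Dpp, was at 517, 693 and 674 in XX embryos and 393, 424 and 362 in XY embryos (log2 difference 0.66, adjusted p 0.0459). All 3 genes lacked overlap between the groups. Mapped to *D. mauritiana*, 7 of the 15 measured genes among the 16 kept their call. *NetA* did so, whereas *ac* (adjusted p 0.0674) and *tsg* (adjusted p 0.0831) did not.

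**Figure D5:**
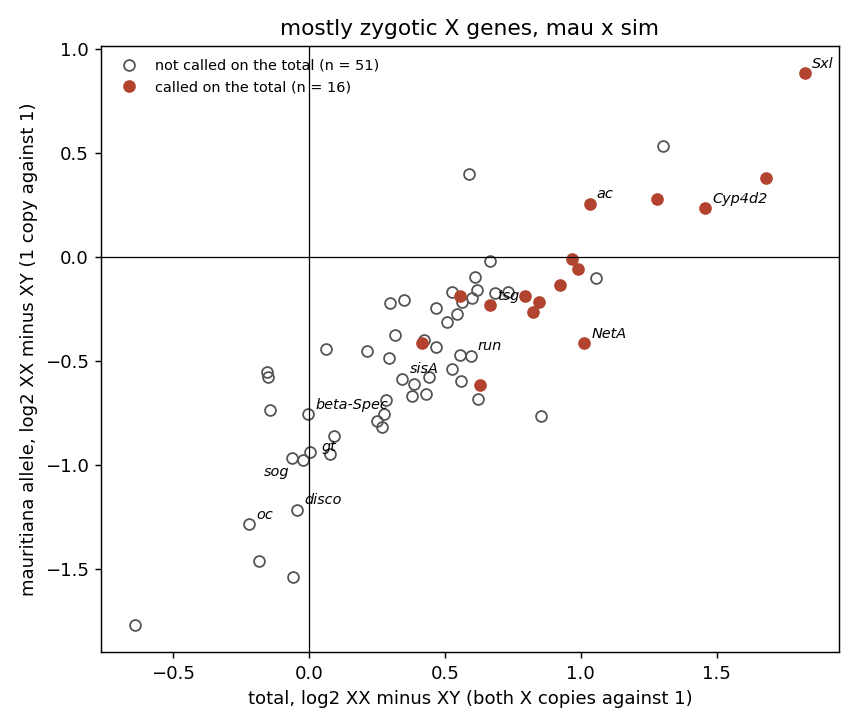
Log2 XX minus XY of the 67 mostly zygotic X-linked genes for the total (horizontal) and for the *D. mauritiana* allele alone (vertical), with filled points for the 16 genes called on the total. *gt*, *sog* and *disco* lie near 0 on the total and near -1 on the allele, *ac* near 1 and slightly above 0, and *Sxl* at 1.83 and 0.88.

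Of the 18 measured genes on a list of X-linked patterning and early zygotic genes, 4 were called higher in XX and none higher in XY, where 28.8% of X-linked genes were called higher in XX. The list median of 0.32 stands beside 0.36 for all X-linked genes. The 4 were *Sxl*, *ac*, *tsg* and *pcx*, a regulator of Notch signalling that differed by 0.64 (adjusted p 0.0247). No list member had an unadjusted p below 0.05 in the direction of XY, and neither edgeR nor DESeq2 called any in that direction. Of 9 measured X-linked genes known for maternal supply, 8 were higher in every XX embryo than in any XY embryo, where 57.0% of all X-linked genes were. *dsh*, a Wnt pathway protein, was the single call by limma (log2 difference 0.53, adjusted p 0.0337). edgeR and DESeq2 each called 6 of the 9 higher in XX, where edgeR called 344 and DESeq2 312 of all 932 X-linked genes. That list had a median of 0.34.

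Head patterning genes on the X were low in XX replicate 3. *oc* was at 546, 635 and 174 in XX embryos and 421, 477 and 478 in XY embryos, and *btd* at 319, 351 and 110 in XX embryos and 270, 193 and 272 in XY embryos. The low value lies in the third XX embryo for each, below all other embryos. Without that embryo the log2 differences were 0.36 and 0.47, against -0.22 and -0.06 with it, and neither gene was called either way. The autosomal head genes *eya* (43.2, 57.6 and 5.37 in XX embryos, 99.9, 71.3 and 62.0 in XY embryos) and *hbn* (72.5, 144 and 14.8 in XX embryos, 174, 173 and 162 in XY embryos) were also lowest there. For *eya* and *hbn*, XX replicates 1 and 2 lay below every XY embryo as well. The same held for the autosomal head gene *Optix*, near the floor at 6.17, 3.84 and 0 in XX embryos and 21.2, 14.3 and 20.2 in XY embryos. Without XX replicate 3, limma called *Optix* (log2 difference -1.71, adjusted p 0.0300). These head genes were picked after their values were seen, and the part of XX replicate 3 in the other results was not tested beyond the values given without it.

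The rule for named genes took the X-linked genes with the largest differences, which were mostly low in signal and little described. *CG3781* was at 113, 127 and 109 in XX embryos and 13.7, 14.3 and 26.9 in XY embryos (log2 difference 2.66, adjusted p 0.00838). *CG9125* was at 61.7, 55.6 and 51.0 in XX embryos and 13.7, 15.7 and 20.2 in XY embryos (log2 difference 1.72), and *Cyp4d2*, a cytochrome P450, at 157, 169 and 205 in XX embryos and 62.4, 58.5 and 70.1 in XY embryos (log2 difference 1.46). In all 3 the excess lay in the *D. simulans* allele, which XY embryos lack. For *CG3781* that allele was at 94.1, 106 and 95.3 in XX embryos, where the *D. mauritiana* allele was at 18.5, 21.1 and 13.4.

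The other genes that the rule took were *hdm*, a meiotic recombination gene, at 2.39, *CG33178* at 1.68, *CG9609* at 1.72, *CG6428* at 1.49, *CG7206* at 1.44 and *CG11398* at 1.44. All 6 were called, at adjusted p-values between 0.0116 and 0.0471, but *hdm* and *CG33178* each lost the call in 6 of 11 alternative analyses and *CG9609* in 8 of 14. Several rest on few reads, and *hdm* had totals of 27.8, 23.0 and 9.39 in XX embryos against 2.50, 2.85 and 2.69 in XY embryos. *hdm* (mean 20.1 in XX and 2.68 in XY) and *CG33178* (18.3 and 5.36) passed the minimum of 10 only through the XX embryos. For these genes the minimum itself favours a difference in the direction called.

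Of the 9 X-linked genes called higher in XY, 8 were falling genes, where 463 of all 932 X-linked genes tested were falling. *Moe*, which encodes moesin, a linker of membrane and actin cortex, was at 202, 226 and 282 in XX embryos and 501, 696 and 711 in XY embryos (log2 difference -1.42, SE 0.18, adjusted p 0.0129). Its *D. simulans* allele was at 13.9, 11.5 and 21.5 in XX embryos, so that nearly all of its signal came from the *D. mauritiana* allele in both sexes. *HP5*, a heterochromatin protein, differed by -1.02, *CG7536* by -1.15, *CG42240* by -0.96 and *CG32549* by -0.84. *Hmr*, a hybrid incompatibility gene singled out after its values were seen, was at 187, 186 and 221 in XX embryos and 317, 304 and 291 in XY embryos (log2 difference -0.62, adjusted p 0.0225).

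On the autosomes, the genes that the rule took for their excess in XY besides *msl-2* were small in signal. *CG15822* was at 18.5, 15.3 and 18.8 in XX embryos and 66.2, 57.1 and 74.1 in XY embryos (log2 difference -1.85, adjusted p 0.0053). *Ptx1*, a homeobox gene, was at 17.0, 19.2 and 24.2 in XX embryos and 53.7, 39.9 and 52.5 in XY embryos (log2 difference -1.24, adjusted p 0.0141). *wnd*, a MAP kinase kinase kinase, differed by -1.64 and *CG43675* by -1.52, but *wnd* lost its call in 10 of 13 alternative analyses, *CG43675* in 6 of 12 and *Ptx1* in 5 of 14, where *CG15822* kept it in all 12. *wnd* (mean 7.50 in XX and 24.6 in XY) and *CG43675* (6.41 and 21.0) passed the minimum of 10 only through the XY embryos, which favours the direction called.

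Higher in XX were *CG6885*, at 480, 537 and 903 in XX embryos and 235, 295 and 248 in XY embryos (2.38-fold, adjusted p 0.0409), and *CG30037*, *dtr*, *GstO1* and *Spec2*, at 2.10, 0.65, 0.58 and 0.48. *CG30037* lost its call in 8 of 12 alternative analyses, *dtr* in 10 of 14, *Spec2* in 9 of 14, *GstO1* in 8 of 15 and *CG6885* in 6 of 15. The XY mean of *CG30037* was 9.05, below the minimum of 10, so it passed through the XX embryos (mean 41.9). Of the 23 measured genes for autosomal patterning, none was called, where 0.121% of autosomal genes were called higher in XX and 1.29% higher in XY, and the list median was 0.11 against -0.06 for all autosomal genes. None had an unadjusted p below 0.05 with limma, and edgeR and DESeq2 called none.

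Lists that follow stage and cell makeup gave no calls. Neither the 6 cellularization genes, the 6 genes for gastrulation and later stages nor the 7 pole cell genes held a call by limma, edgeR or DESeq2. At an unadjusted p below 0.05, limma found 2 pole cell genes lower in XX and none in the other lists, where 543 of 4955 autosomal genes were lower at that p. Over all autosomal genes, the shares called by limma were 0.121% higher in XX and 1.29% higher in XY. Summed signal of the pole cell list was between 7792 and 7940 in XX embryos and between 8672 and 8892 in XY embryos. In whole embryos, fewer cells of a type and less RNA per cell cannot be told apart. Cellularization genes summed to between 19821 and 25463 in XX embryos and between 17804 and 24707 in XY embryos, and gastrulation genes to between 795 and 1053 in XX embryos and between 810 and 1119 in XY embryos. The part of these lists in the sex differences was not tested.

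The *sim* x *mau* cross gives the same comparison with the species of the X exchanged. Its sex labels rest at least in part on the transcriptomic data, so its sex differences are not a fully separate check. There the X against autosome difference was 0.42 over all genes and 0.59 over mostly zygotic genes (0.48 and 0.71 mapped to *D. mauritiana*), next to 0.43 and 0.64 in *mau* x *sim* (0.39 and 0.50 mapped to *D. mauritiana*). The exact permutation test gave p = 0.0667 in *sim* x *mau*, the smallest that 4 embryos against 2 can give. In that cross 90 of 932 X-linked genes (9.66%) were called higher in XX mapped to *D. simulans*, 154 of 888 mapped to *D. mauritiana* (159 of 888 in *mau* x *sim*), and 229 of 932 in a single fit of the 12 embryos. Mapping to *D. mauritiana* lowered the difference in *mau* x *sim* and raised it in *sim* x *mau*.

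Of the 268 X-linked genes called higher in XX in *mau* x *sim*, 249 had the same sign in *sim* x *mau* and 54 were also called there. Genes called in the same direction in both crosses and both mapping directions numbered 34 on the X, all higher in XX, and 2 on the autosomes, *msl-2* and *msl-3*, both higher in XY. *Sxl* headed the 34, which also held *car*, a vesicle sorting gene (log2 difference 1.06), *mei-9*, a DNA repair endonuclease (1.00), and *Pink1*, a mitochondrial quality control kinase (0.90).

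*Sxl* and the 3 *msl* genes had the same sign in other embryos of the series. In *sim* x *mau*, *Sxl* was at 3975, 3637, 3820 and 4043 in XX embryos and 1187 and 1166 in XY embryos, and *msl-2* at 522, 634, 536 and 579 in XX embryos and 1486 and 1499 in XY embryos. The log2 differences were 1.72 for *Sxl* (adjusted p 0.00209) and -1.40 for *msl-2* (adjusted p 0.0104). With *D. sechellia* as a parent, *Sxl* differed by 1.61 in *sim* x *sec* (adjusted p 0.00273) and 2.27 in *sec* x *mau* (adjusted p 0.00262), and *msl-2* by -1.49 and -2.05 (adjusted p 0.0122 and 0.0501). *msl-3* differed by -0.86, -0.69 and -0.87 over these 3 crosses (adjusted p 0.0383, 0.0222 and 0.0825), and *msl-1* by -0.42, -0.38 and -0.61 (adjusted p 0.195, 0.316 and 0.284, none called). The *mau* x *sec* cross was left out because X alleles went against the sex label in 3 of its 6 embryos.

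A test of the difference between the crosses called 18 of 5887 genes (0.306%), 17 of them on the X. Of these 17, 8 had a larger log2 XX minus XY in *mau* x *sim* and 9 a larger one in *sim* x *mau*. *mof* differed by 0.38 in *mau* x *sim* but by -0.998 in *sim* x *mau*, where it was at 109, 119, 108 and 144 in XX embryos and 219 and 262 in XY embryos (difference of differences 1.38, SE 0.18, adjusted p 0.0103). *CG3781*, *CG9125* and *Cyp4d2*, each higher in XX in *mau* x *sim*, differed by -0.03, -0.42 and -0.08 in *sim* x *mau* and were called for the difference between crosses (adjusted p 0.00757, 0.0225 and 0.0236). Without XY replicate 5 of *sim* x *mau*, none of these 4 genes was called (adjusted p between 0.0547 and 0.132). That fit leaves a single XY embryo in *sim* x *mau*. For *Moe* the log2 difference was -0.12 in *sim* x *mau*. Its difference between crosses missed the threshold mapped to *D. simulans* (adjusted p 0.0502) and passed it mapped to *D. mauritiana* (adjusted p 0.0424). The test did not call *Sxl* (adjusted p 0.950) or *msl-2* (adjusted p 0.635).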

How the data were processed

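Reads had been trimmed (Cutadapt 1.7.1) and aligned to the genomes of both species (TopHat 2.0.13) by the authors, who called variants with GATK and summed reads over variant sites by allele. The deposited unit is a signal, those sums scaled by upper quantile normalization. All values divided by 1 step per embryo were whole reads within 0.01. Totals are both alleles mapped to *D. simulans*, with *D. mauritiana* mapping as the check. The main test was limma 3.58.1 (R 4.3.3) on log2(total + 1), since the values are not counts. edgeR 4.0.16 and DESeq2 1.42.0 ran on the recovered reads. Genes needed a mean total of 10. The text names the listed genes for sex determination and dosage compensation, and called genes without overlap ranked by size of difference: on the X 10 higher in XX and 5 higher in XY, on the autosomes 5 each way. Members and lists were chosen with earlier results of these data known. Fits were tested on simulated data. 324 columns of other embryos were not used. Alternatives were mapping, minimum, pseudocount, scaling, tool and leaving out embryos.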

Additional observations from a re-analysis of the deposited data

Results flagged for a closer look

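The sex difference itself differed between *mau* x *sim* and *sim* x *mau* for 18 genes in limma's test of cross by sex (Benjamini-Hochberg over 5887 genes), and 4 of them are named genes. The difference of log2 differences was positive for 8 X-linked genes called and negative for 9. The most negative were *Pvf1* (-5.62), *CG2889* (-3.06) and *Rab18* (-2.73). The autosomal call was *RpL22-like* (7.66). *CG3781*, *CG9125* and *Cyp4d2* were named for their XX excess in *mau* x *sim*, and those values enter this test too. The 4 named genes were all positive, at 2.69 for *CG3781*, 2.14 for *CG9125*, 1.54 for *Cyp4d2* and 1.38 for *mof*. All 4 were also called when mapped to *D. mauritiana*, at 2.11, 1.85, 1.42 and 1.35. Leaving out each of the 12 embryos in turn, *CG3781* and *mof* kept the call in 11 cases, *Cyp4d2* in 7 and *CG9125* in 6. Without XY replicate 5 of *sim* x *mau* all 4 lost it, at adjusted p-values of 0.0547 for *CG3781*, 0.0708 for *mof*, 0.103 for *CG9125* and 0.132 for *Cyp4d2*. That fit holds a single XY embryo of *sim* x *mau*. XY embryos of *mau* x *sim* carry a *D. mauritiana* X and those of *sim* x *mau* a *D. simulans* X, so species of the X and cross cannot be told apart.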

How the results depend on the processing

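No paired analysis was possible because XX and XY embryos share no replicate numbers. The X against autosome difference (0.43) ranged from 0.42 to 0.44 on leaving out an embryo, that of mostly zygotic genes (0.64) from 0.59 to 0.66 and that of their *D. mauritiana* allele (-0.30) from -0.35 to -0.28, and no other setting changed their sign. The share of *D. simulans* alleles on the X differed by 22.6 percentage points, also without change of sign. Counts moved more. Leaving out an embryo gave 16 to 189 X-linked genes higher in XX (268 with all embryos), 0 to 10 higher in XY (9), 0 to 7 autosomal genes higher in XX (6) and 2 to 43 higher in XY (64). The 5 to 19 genes called between crosses compare with 18. Mapping to *D. mauritiana* gave 159 X-linked genes higher in XX and 32 autosomal genes higher in XY. Without a minimum the counts were 173, 5, 2 and 30. Scaling from autosomal genes gave 10 and 37 autosomal genes. edgeR gave 14 X-linked genes higher in XY and 21 autosomal genes higher in XX, and DESeq2 14 and 20. The cause was not tested, except that leaving out a *mau* x *sim* embryo leaves 2 in its group and fewer degrees of freedom. For the test between crosses, leaving out an XY embryo of *sim* x *mau* leaves a single XY embryo there. Of 27 named genes called, 6 kept their call in every alternative that held them (*Sxl*, *msl-2*, *CG3781*, *CG9125*, *Cyp4d2* and *CG15822*), and none changed sign with a call. *mof* gained a call with a minimum of 50 (adjusted p 0.0404), scaling from autosomal genes (0.0344) or only genes with similar totals in both mapping directions (0.0490).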
